A study of Mus musculus with 15 samples.

Results

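Lysosome and autophagy genes were followed in the livers of mice after gastric bypass. The list held 39 genes: 2 transcription factors of the lysosome, 4 proteins of its membrane, 15 digestive enzymes and their helpers, 5 subunits of its proton pump and 13 genes of autophagy. Of these, 36 were measured, out of 22180 genes in all, each by the transcript cluster with the highest mean over the arrays. Glb1, Atp6v0c and Optn were not analysed here. All 15 mice were male, carried the human ApoE*3-Leiden and CETP transgenes and ate food holding 60% fat and 0.25% cholesterol during the 6 weeks that preceded surgery. The labels give an age of 9 to 12 weeks, which came before this diet, and killing 20 days after surgery. The groups were Roux-en-Y gastric bypass (RYGB, n = 6), in which food is led from a small stomach pouch straight into the jejunum, sham surgery with free feeding (Sham AL, n = 5) and sham surgery with body weight matched to the bypass mice (BWm, n = 4). Transgenes and diet were thus shared by every group, and no mouse without them is among the samples.

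Lysosomes are acidic compartments in which hydrolases break down proteins, glycans and lipids, and a proton pump, the V-ATPase, keeps them acidic. Macroautophagy wraps cytoplasm in a membrane marked with lipid-linked LC3 and GABARAP proteins and delivers it to lysosomes, a route by which the fasting liver recovers amino acids and lipids. TFEB and TFE3 are related transcription factors that enter the nucleus when the kinase mTORC1 is inactive and bind an E-box in the promoters of many lysosomal genes.

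Values are log2 signals, 1 array per mouse (mouse 4 is replicate 4 of its group), and differences are log2 differences between group means with their standard error (SE). A gene was called when its adjusted p, over all genes measured, was under 0.05. For some lists, counts at an unadjusted p under 0.05 are also given. The share of all genes at that threshold was not counted, so those counts cannot be set against a background. Array medians lay between 3.89 and 4.02. The array of Sham AL replicate 4 stood apart: its mean over 8 adrenal cortex markers was 8.7 and over 8 fat markers 8.46, with group medians of 3.22 and 4.76, and 662 of its genes were more than 1 unit away from the average of the remaining Sham AL mice, against 53 to 128 genes for each of the other 14 arrays. It was kept, and the calls that it decides are named with their genes. The labels number the animals under 50 for 3 of 6 RYGB, 1 of 5 Sham AL and 0 of 4 BWm mice and over 60 for the rest. What the numbers stand for is not given in the sources used here. Markers of hepatocytes were abundant, with 11 hepatocyte markers averaging 11.14 to 11.47 on every array.

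After bypass a few members rose and none was called lower. Against Sham AL, Tfe3, Ctsl, Asah1 and Neu1 were called higher, 4 of 36 members (11.1%), where 0.938% of all genes and 1.71% of the genes over the median level were. No member was called lower, beside 0.442% and 0.676% of these genes. Against BWm, Tfe3, Ctsl, Asah1 and Atg13 were called, again 4 of 36, where the shares called higher were 4.02% of all genes and 7.37% of the genes over the median level, and those called lower 2.34% and 4.1%. In BWm against Sham AL, Map1lc3b was the 1 called member of 36 (2.78%), a share between the 1.53% of all genes and the 2.81% of the genes over the median level called higher; the shares called lower were 1.3% and 2.41%. The median difference over the members was 0.04, 0.115 and 0.02 in the same order, beside -0.0029, 0.0012 and -0.0147 over all genes. The comparisons share arrays, so calls that recur for RYGB are not independent of each other. The other 30 members were called nowhere. Their 95% confidence intervals stayed within a 1.5-fold change for 30 of 30 in RYGB against Sham AL, 29 in RYGB against BWm and 28 in BWm against Sham AL.

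**Figure D1:**
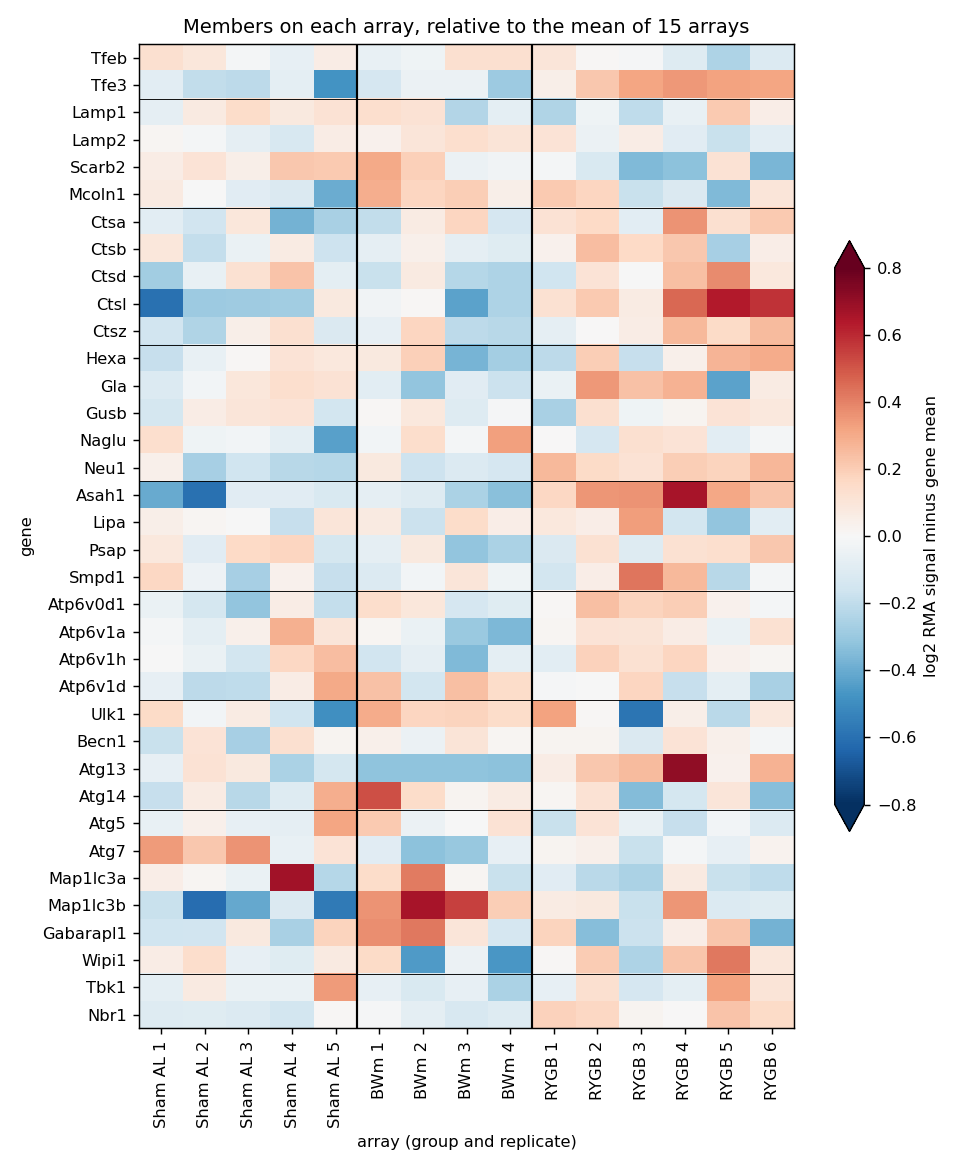
Each row is 1 of the 36 measured members, ordered by role with lines between roles, and each column 1 of the 15 arrays; colour gives the log2 signal minus the gene's mean over all arrays, and colours beyond 0.8 are drawn at the end of the scale. Tfe3, Ctsl, Asah1 and Neu1 are red on the RYGB arrays, Map1lc3b is red on the BWm arrays and Atg13 is evenly blue on them, while most other rows show no block by group.

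Of the regulators, Tfe3 rose after bypass and Tfeb did not pass the test. Tfe3 measured between 7.1 and 7.4 on the RYGB arrays (median 7.37), 6.97, 6.86, 6.84, 6.98 and 6.57 on the Sham AL arrays, and 6.92, 7.01, 7.01 and 6.76 on the BWm arrays. All 6 RYGB arrays thus lay above every sham array. The sham groups overlapped, with 2 BWm arrays above every Sham AL array. The difference was 0.47 ± 0.097 SE from Sham AL (adjusted p = 0.0186) and 0.39 ± 0.104 SE from BWm (adjusted p = 0.0292), a rise of 1.39-fold and 1.31-fold. The first call was lost when RYGB mouse 4 or Sham AL mouse 2 or 5 was left out (highest adjusted p = 0.054). The second was lost when RYGB mouse 3, 4, 5 or 6 or BWm mouse 1, 3 or 4 was left out (highest adjusted p = 0.098). Tfeb, near the array medians at 4.07 ± 0.12 (SD, n = 6) in RYGB, 4.17 ± 0.08 (SD, n = 5) in Sham AL and 4.17 ± 0.1 (SD, n = 4) in BWm, differed by -0.1 from each sham group (adjusted p = 0.699 and 0.652).

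**Figure D2:**
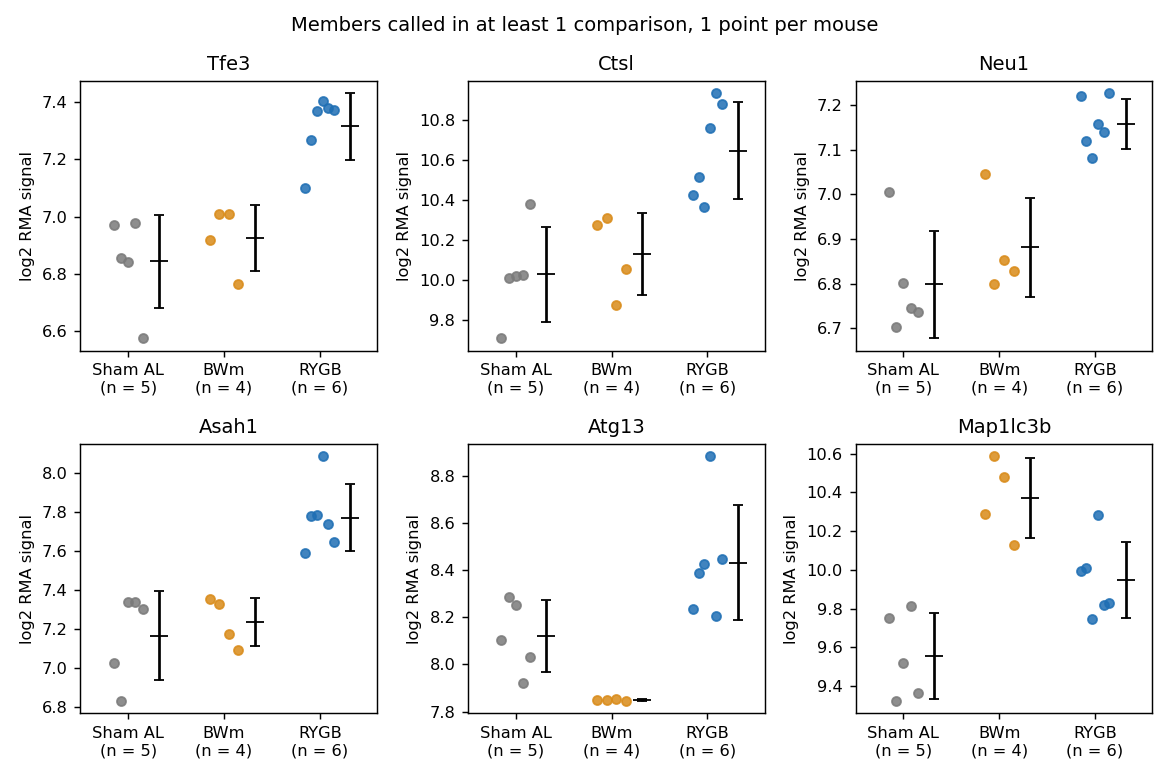
Log2 signal of the 6 members called in at least 1 comparison, 1 point per mouse, with the group mean and its SD drawn to the right of the points. Tfe3, Asah1 and Neu1 have all 6 RYGB points above both sham groups, Ctsl and Atg13 above the BWm points only, and Map1lc3b has all 4 BWm points above the Sham AL points.

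Because the factors encoded by these genes act through an E-box, the promoters of the members were searched for its letters, CACGTG, which read the same on either strand. RefSeq promoters of build GRCm38.p6, running from 250 bases before to 50 bases after the start of transcription, were found for 31 of the 36 members. The letters stood in 13 of them (41.9%), against 9.22% of 16918 genes measured on the arrays with such a promoter. The longer form TCACGTGA, which contains the E-box, stood in 6 of 31 (19.4%) against 1.44%, and the full CLEAR motif as GTCACGTGAC in 0 of 31 against 0.497%. Other genes of these pathways, read further below, had the E-box in 29 of 154 (18.8%). Of the same 154, 12 had the longer form (7.79%) and 3 the full motif (1.95%). Only bases before the start are printed, 5′ to 3′ on the strand of the gene, for 5 of the 6 members with the longer form (the sixth, Atp6v0d1, has it at the start itself), for Lamp1 with its run of E-boxes and for Ctsl as the called member among them; capitals mark CACGTG.
Ctsl, chr13:64370731-64370770, minus strand: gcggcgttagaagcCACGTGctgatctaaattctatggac
Ctsd, chr7:142387900-142387945, minus strand: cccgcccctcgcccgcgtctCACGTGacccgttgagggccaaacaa
Ctsa, chr2:164833741-164833772, plus strand: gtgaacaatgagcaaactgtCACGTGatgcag
Gla, chrX:134601174-134601252, minus strand: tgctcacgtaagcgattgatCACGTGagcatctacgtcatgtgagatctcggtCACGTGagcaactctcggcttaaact
Mcoln1, chr8:3500428-3500499, plus strand: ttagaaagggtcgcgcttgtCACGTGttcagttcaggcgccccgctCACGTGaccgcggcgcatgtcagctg
Lamp1, chr8:13159080-13159160, plus strand: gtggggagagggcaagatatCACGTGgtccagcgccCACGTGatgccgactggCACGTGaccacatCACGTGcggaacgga
Atp6v1a, chr16:44139365-44139410, minus strand: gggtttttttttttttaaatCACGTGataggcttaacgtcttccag
Of the 13 members with an E-box in this window, 1 was called, Ctsl, whose match begins 236 bases before the start and has other letters on either side than the longer form. Among the members with a promoter, the E-box stood in 1 of 5 called members and in 12 of 26 that were not called. The members with the densest matches, Lamp1 with 4 E-boxes within 61 bases of the start and Gla, Mcoln1, Ctsd and Ctsa with 2 each, were not called in any comparison. A match describes letters in this window and is no evidence of binding.

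Lysosomal hydrolases held 3 of the 4 calls against Sham AL and 2 of the 4 against BWm, out of 14 measured members of this class. The class is counted here with Psap, which encodes activator proteins and no hydrolase. Ctsl, the gene of the cysteine protease cathepsin L, measured between 10.37 and 10.94 on the RYGB arrays (median 10.64), 9.71, 10.01, 10.02, 10.02 and 10.38 on the Sham AL arrays, and 10.28, 10.31, 9.87 and 10.05 on the BWm arrays. RYGB replicates 4, 5 and 6 were highest, and Sham AL replicate 5 reached into the RYGB range, while no BWm array did. Ctsl rose by 0.62 ± 0.136 SE against Sham AL (1.54-fold, adjusted p = 0.0264) and by 0.52 ± 0.145 SE against BWm (1.43-fold, adjusted p = 0.0378). Leaving out RYGB mouse 4, 5 or 6, or Sham AL mouse 1, 2 or 3, took the first call away (highest adjusted p = 0.078). Leaving out RYGB mouse 4, 5 or 6, Sham AL mouse 2 or BWm mouse 3 or 4 took the second away (highest adjusted p = 0.15). The other 4 cathepsin genes among the members were not called, with differences of 0.12 to 0.3 against Sham AL and 0.12 to 0.25 against BWm: all 5 member cathepsins lay above 0 in both comparisons. Cathepsin genes outside the member list went both ways. Among them, Ctsf was lower in RYGB than in either sham group, with means of 6.17 in RYGB, 6.31 in Sham AL and 6.77 in BWm. Ctsa, the protective protein that also stabilises the sialidase Neu1, was nearest to a call (0.3 ± 0.108 SE against Sham AL, adjusted p = 0.212).

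Asah1, the acid ceramidase that splits ceramide into sphingosine and a fatty acid, was called against both sham groups. It measured between 7.59 and 8.09 on the RYGB arrays (median 7.76), 7.02, 6.83, 7.34, 7.34 and 7.3 on the Sham AL arrays, and 7.35, 7.33, 7.17 and 7.09 on the BWm arrays. Every RYGB array lay above every sham array. The rise was 0.61 ± 0.116 SE against Sham AL (1.52-fold, adjusted p = 0.012) and 0.54 ± 0.123 SE against BWm (1.45-fold, adjusted p = 0.0123), and both calls held without each of the 15 arrays in turn (adjusted p of up to 0.045 in both). The other genes of lipid breakdown did not pass the test. Lipa, the acid lipase that frees cholesterol and fatty acids from esters taken up with lipoproteins, measured 10.53 ± 0.22 (SD, n = 6) in RYGB, 10.53 ± 0.11 (SD, n = 5) in Sham AL and 10.56 ± 0.14 (SD, n = 4) in BWm, and the 95% confidence interval of its difference from Sham AL ran from -0.24 to 0.23. Psap, the precursor of the sphingolipid activator proteins, and Smpd1, the acid sphingomyelinase, differed by 0.03 and 0.12 from Sham AL.

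Among 5 glycosidases, Neu1, the lysosomal sialidase, rose against Sham AL. It measured between 7.08 and 7.23 on the RYGB arrays (median 7.15), 7, 6.7, 6.8, 6.74 and 6.74 on the Sham AL arrays, and 7.05, 6.8, 6.85 and 6.83 on the BWm arrays, so the RYGB arrays lay above all sham arrays within a narrow band. The difference was 0.36 ± 0.086 SE from Sham AL (adjusted p = 0.0445). From BWm it was 0.28 ± 0.091 SE (adjusted p = 0.0859), not called. The call against Sham AL held in 2 of 15 fits that each left out 1 mouse, those without BWm mouse 1 or Sham AL mouse 1, and was lost in the other 13 (highest adjusted p = 0.14). It was also lost with the animal number as a term (adjusted p = 0.074). Hexa, Gla, Gusb and Naglu, which cut gangliosides, globosides, glucuronides and heparan sulfate, differed by 0.01 to 0.09 from Sham AL and by -0.11 to 0.24 from BWm. Counted with the activator gene Psap, 13 of 14 hydrolase members lay above 0 against Sham AL (median 0.119) and 12 of 14 against BWm (median 0.181). In BWm against Sham AL, 7 of 14 did (median 0.015). Of the 35 other lysosomal hydrolases and cofactors measured, 22 lay above 0 and 13 below against Sham AL (median 0.071). Against BWm, 15 of them lay above 0 and 20 below (median -0.029), so their median did not share the shift of the members against BWm. By single calls, 5 of these 35 were higher there and 1 lower, as given further below. The mean over the 14 genes was 8.84 to 9.07 on the RYGB arrays, 8.71 to 8.84 on the Sham AL arrays and 8.72 to 8.86 on the BWm arrays, with RYGB replicate 1 no higher than the highest arrays of either sham group.

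Macrophages are rich in lysosomal enzymes, and most markers of macrophages lay above 0 in both RYGB comparisons, with overlap between the arrays of the groups. Of 14 markers of Kupffer cells, the resident macrophages of the liver, 14 lay above 0 against Sham AL and 12 against BWm, and 1 was called higher against Sham AL (Adgre1, 0.64, adjusted p = 0.0252) and 1 against BWm (Cd68, 0.72, adjusted p = 0.016), with medians of 0.382 and 0.297. At an unadjusted p under 0.05, 10 of these 14 were higher against Sham AL and 7 against BWm. In BWm against Sham AL, 2 of the 14 were called higher (Cd163 and Slc40a1) and 3 were higher at an unadjusted p under 0.05. There 8 lay above 0 (median 0.066). Of all genes, 0.938% were called higher in RYGB against Sham AL, 4.02% in RYGB against BWm and 1.53% in BWm against Sham AL. The mean level of the 14 Kupffer cell markers was 7.62 to 8.13 on the RYGB arrays, 7.25 to 7.72 on the Sham AL arrays and 7.36 to 7.96 on the BWm arrays, so the groups overlapped. The defining markers Clec4f and Timd4 averaged 8.25 to 8.43 and 6.24 to 6.48 over the groups and differed from Sham AL by 0.16 and 0.24 (adjusted p = 0.707 and 0.645). Of 12 markers of recruited macrophages, 0 were called against Sham AL and 1 (Cd9) higher against BWm, with mean levels of 5.48 to 6.3 in RYGB, 5.33 to 6.13 in Sham AL and 5.33 to 5.65 in BWm. At an unadjusted p under 0.05, 2 of the 12 were higher against Sham AL and 6 against BWm. Of 10 neutrophil markers, 0 were called against Sham AL or BWm, with 4 higher at an unadjusted p under 0.05 in each comparison. The part of these cells in the hydrolase results was not tested. In pieces of liver, more cells of a type and more RNA per cell cannot be told apart.

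**Figure D3:**
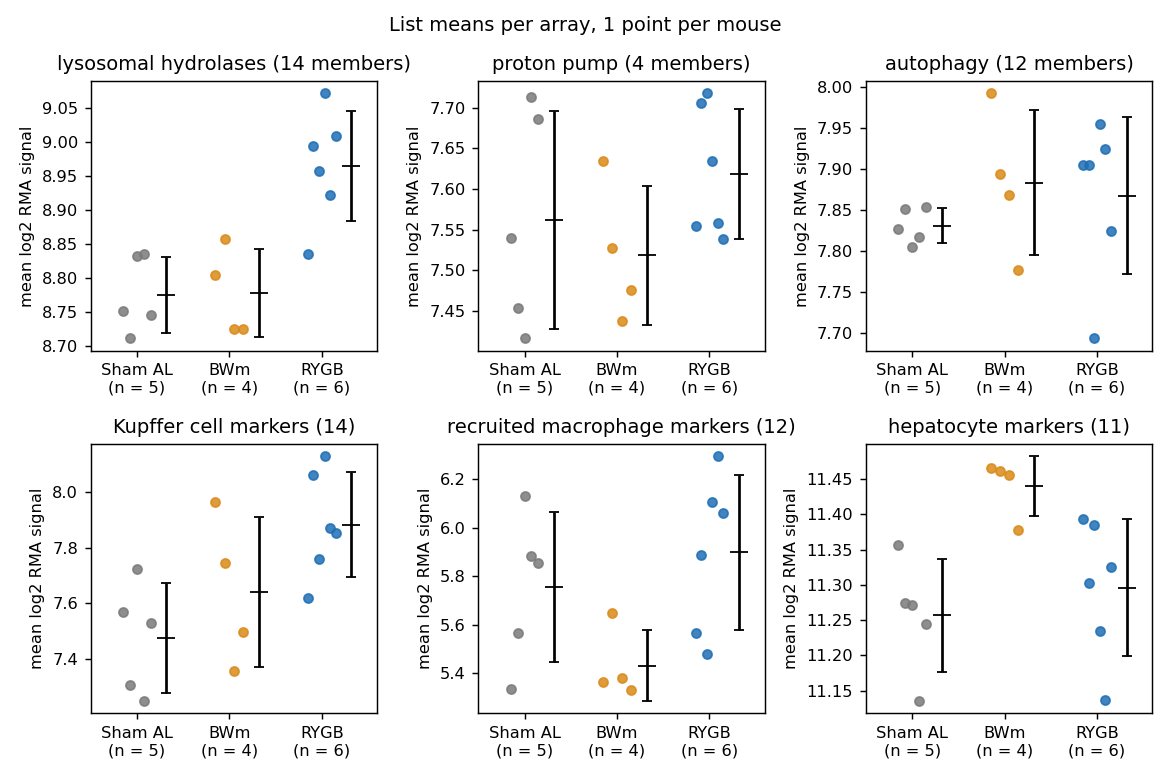
Mean log2 signal per array over the members of 3 classes (upper row) and over 3 marker lists (lower row), 1 point per mouse, with the group mean and its SD to the right; axes start at different values. The hydrolase points of RYGB lie at 8.84 to 9.07, mostly above both sham groups, and this class includes the activator gene Psap. Kupffer cell markers are highest in RYGB with overlap, and proton pump and autophagy points overlap throughout.

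The lysosomal membrane and the proton pump gave no call. Lamp1 and Lamp2, the most abundant glycoproteins of the membrane, differed by -0.11 ± 0.102 SE and -0.01 ± 0.082 SE from Sham AL and by -0.03 and -0.13 from BWm. Scarb2, which carries glucocerebrosidase to lysosomes, had the lowest values in bypass, 8.82 ± 0.2 (SD, n = 6) against 9.13 ± 0.08 (SD, n = 5) in Sham AL and 9.1 ± 0.17 (SD, n = 4) in BWm, but the differences of -0.31 and -0.28 were not called (adjusted p = 0.204 and 0.178). Mcoln1, a calcium channel of the lysosome, differed by 0.08 from Sham AL and by -0.21 from BWm. All 4 membrane genes lay below 0 against BWm. Of the pump genes, Atp6v0d1 of the membrane sector differed by 0.23 ± 0.095 SE from Sham AL (adjusted p = 0.291). Atp6v1a, the catalytic subunit, and Atp6v1h, the regulatory one, were lowest in BWm, with differences of 0.23 and 0.24 for RYGB against BWm (adjusted p = 0.224 and 0.212) and of -0.01 and 0.03 against Sham AL. Atp6v1d of the stalk differed by -0.04 and -0.18. The mean over the 4 pump genes was 7.54 to 7.72 on the RYGB arrays, 7.42 to 7.71 on the Sham AL arrays and 7.44 to 7.63 on the BWm arrays.

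In the autophagy machinery, 12 genes measured, the clearest difference was between the sham groups. Map1lc3b, which encodes the LC3 protein most used to mark autophagosomes, measured 10.29, 10.59, 10.48 and 10.13 on the BWm arrays, 9.75, 9.32, 9.52, 9.82 and 9.37 on the Sham AL arrays, and 9.75 to 10.29 on the RYGB arrays (median 9.91). All BWm arrays lay above all Sham AL arrays, and the RYGB arrays lay between, overlapping both groups. It rose by 0.82 ± 0.138 SE in BWm against Sham AL (1.76-fold, adjusted p = 0.0034), and this call held without each of the 15 arrays in turn (adjusted p of up to 0.019). The RYGB mean differed by 0.39 ± 0.125 SE from Sham AL (adjusted p = 0.153) and by -0.42 ± 0.133 SE from BWm (adjusted p = 0.0694). The latter passed the threshold when RYGB mouse 4 or BWm mouse 4 was left out (lowest adjusted p = 0.035). The relatives Map1lc3a and Gabarapl1 did not pass the test, at 0.01 ± 0.156 SE and 0.25 ± 0.152 SE in BWm against Sham AL.

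Atg13, a subunit of the ULK1 kinase complex that starts autophagy, was higher in RYGB than in BWm. It measured 8.2 to 8.88 on the RYGB arrays (median 8.41), 8.11, 8.29, 8.25, 7.92 and 8.03 on the Sham AL arrays, and 7.85, 7.85, 7.85 and 7.84 on the BWm arrays. The BWm arrays formed the lowest group with hardly any spread, and RYGB overlapped Sham AL. The difference of RYGB from BWm was 0.58 ± 0.122 SE (just under 1.5-fold, adjusted p = 0.00644), called without each of the 15 arrays in turn (adjusted p of up to 0.021), and the difference from Sham AL was 0.31 ± 0.114 SE (adjusted p = 0.227). BWm differed from Sham AL by -0.27 ± 0.127 SE (adjusted p = 0.318). The kinase gene Ulk1 differed by 0.03 from Sham AL and by -0.26 from BWm, Becn1 of the lipid kinase complex by 0.05 and -0.02, and its partner Atg14 by -0.07 and -0.29, none of them called.

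Of the conjugation genes besides LC3, Atg7, the enzyme that activates LC3 and ATG12, was lowest in BWm: 7.55, 7.31, 7.34 and 7.58 there and 7.98, 7.86, 8, 7.58 and 7.75 in Sham AL. The groups did not overlap, but BWm replicate 4 lay just under Sham AL replicate 4. Its difference of -0.39 ± 0.107 SE was not called over all arrays (adjusted p = 0.0583), and passed the threshold once Sham AL mouse 4 was left out (adjusted p = 0.031). Atg5 and Wipi1, which act in the same steps of membrane growth, differed by -0.11 and 0.1 from Sham AL. Against BWm, Wipi1 was higher by 0.32 (means of 6.56 in RYGB and 6.24 in BWm) and Atg5 lower (7.8 and 7.95), neither of them called. Nbr1, a receptor that links ubiquitinated cargo to LC3, lay above every BWm array on every RYGB array, at 9.2 to 9.43 (median 9.36) against 9.19, 9.12, 9.07 and 9.1, a difference of 0.21 ± 0.085 SE that was not called (adjusted p = 0.191). In all, the RYGB arrays lay wholly above BWm for 6 members (Tfe3, Ctsl, Asah1, Neu1, Atg13, Nbr1), where 4.71% of all genes did, and wholly above Sham AL for 3 (Tfe3, Asah1, Neu1), where 1.58% did. No member lay wholly below either group, beside 2.91% and 0.812% of all genes. The BWm arrays lay wholly above Sham AL for 1 member (Map1lc3b), beside 3.46% of all genes, and wholly below for 2 (Atg13, Atg7), beside 3.39%. Tbk1, the kinase that activates autophagy receptors, differed by 0 from Sham AL and by 0.18 from BWm.

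**Figure D4:**
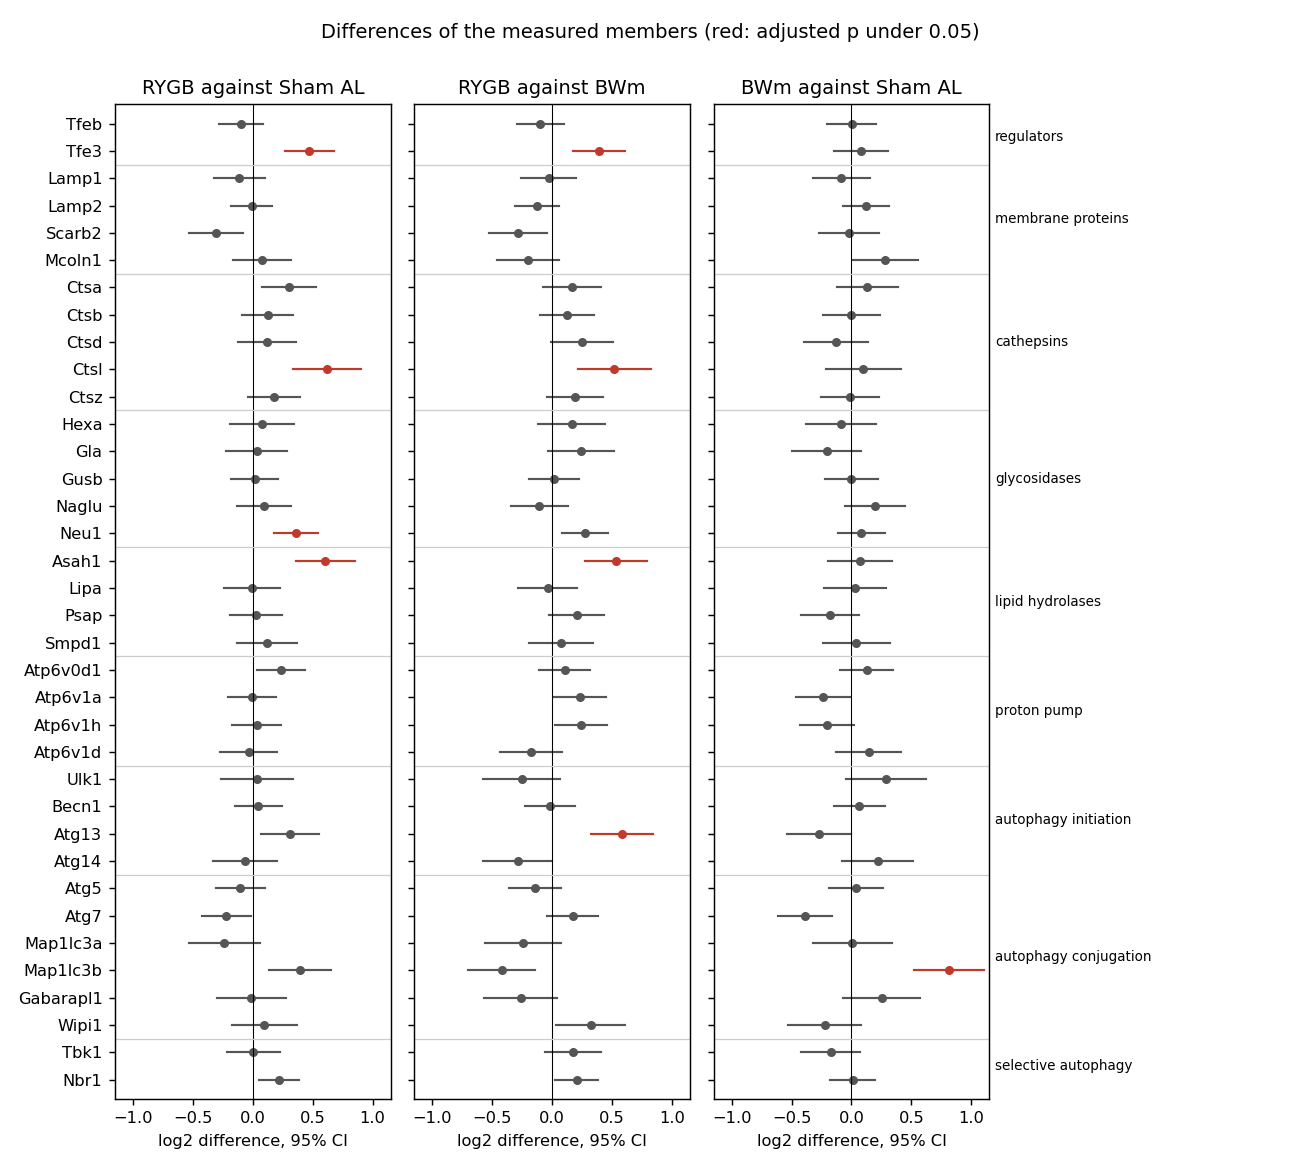
Log2 difference (point) and its 95% confidence interval (line) of each of the 36 members in the 3 comparisons, ordered by role, with calls at an adjusted p under 0.05 in red. Red points lie right of 0 in every panel: 4 against Sham AL, 4 against BWm and 1 in BWm against Sham AL, and the intervals of most other members cross 0.

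Other genes of these pathways, 181 measured of 192 on 6 lists, were read in the same way. Against Sham AL 6 rose and 0 fell (3.31% called, beside 1.38% of all genes), against BWm 11 rose and 5 fell (8.84% beside 6.36%), and in BWm against Sham AL 5 rose and 2 fell (3.87% beside 2.84%). Among genes over the median level, 1.71%, 7.37% and 2.81% were called higher in the same order, and 0.676%, 4.1% and 2.41% lower. Both directions together, these exceed the pathway shares of 8.84% and 3.87%, but not that of 3.31% against Sham AL. All these shares are the background for each list below. Of the genes called against both sham groups, the largest differences were those of Sqstm1, which encodes p62, a receptor that carries ubiquitinated cargo into autophagosomes and is itself degraded there. It measured 10.53 to 11.06 on the RYGB arrays (median 10.88), 9.92, 9.89, 9.98, 10.07 and 10.26 on the Sham AL arrays, and 9.89, 10.02, 10.04 and 9.79 on the BWm arrays, so every RYGB array stood above every sham array. The rise was 0.84 ± 0.106 SE against Sham AL (1.79-fold, adjusted p = 0.000524) and 0.93 ± 0.113 SE against BWm (1.9-fold, adjusted p = 0.000112).

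Among 35 other hydrolases and cofactors, 3 rose against Sham AL, and all of these were also called against BWm, where 5 rose and 1 fell. In either direction 8.57% and 17.1% of this list were called, beside 1.38% and 6.36% of all genes. Arsg, a lysosomal sulfatase, rose by 0.63 ± 0.102 SE against Sham AL (adjusted p = 0.00346) and 0.8 ± 0.108 SE against BWm (adjusted p = 0.000209). Scpep1, a serine carboxypeptidase, rose by 0.63 and 0.65 (adjusted p = 0.0246 and 0.0104), and Galns, a sulfatase of keratan sulfate, by 0.48 and 0.41 (adjusted p = 0.0381 and 0.0429). Sgsh, a sulfatase of heparan sulfate, and the acid phosphatase gene Acp2 were called against BWm only (0.59 and 0.42), but were lowest in BWm, where Acp2 was also called lower than in Sham AL (-0.39, adjusted p = 0.0426). Ctsf went the other way, at -0.6 ± 0.156 SE against BWm (adjusted p = 0.0251), a call lost when RYGB mouse 3 or BWm mouse 2 or 3 was left out. Ctsh rose in BWm against Sham AL (0.41 ± 0.092 SE, adjusted p = 0.0218), a call lost when Sham AL mouse 4 or BWm mouse 2 or 3 was left out. The adjusted p of Galns and Scpep1 against Sham AL reached 0.099 and 0.092 when single arrays were left out, and the calls were lost in 7 and 6 of these 15 fits. For Galns these left out RYGB mouse 1, 2, 4 or 6 or Sham AL mouse 2, 4 or 5, and for Scpep1 RYGB mouse 2, 4 or 6 or Sham AL mouse 2, 3 or 5. Against BWm, Galns was lost in 9 of 15 fits, and the Acp2 call between the sham groups in 13 of 15, all but those without RYGB mouse 5 or Sham AL mouse 5. Ctsf in BWm against Sham AL (0.46, adjusted p = 0.147) passed the threshold once Sham AL mouse 4 was left out (0.62, adjusted p = 0.014).

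Of 33 other genes of the lysosomal membrane and of delivery to it, 0 were called against Sham AL (8 higher and 2 lower at an unadjusted p under 0.05). Against BWm 3 were called higher (9.09%), beside 4.02% of all genes and 7.37% of the genes over the median level. They were Cd68, which also stands among the Kupffer cell markers, Slc36a1, an amino acid exporter, and M6pr. The last is a mannose 6-phosphate receptor that brings new hydrolases to lysosomes (0.41 ± 0.106 SE, adjusted p = 0.026). M6pr was lost in 4 of the 15 fits, without RYGB mouse 2 or 6 or BWm mouse 2 or 4, Cd68 without BWm mouse 3 or 4, and Slc36a1 without BWm mouse 2. Slc36a1 measured 7.06 ± 0.15 (SD, n = 6) in RYGB, 7.03 ± 0.2 (SD, n = 5) in Sham AL and 6.59 ± 0.05 (SD, n = 4) in BWm. It was thus lowest in BWm, and called lower there than in Sham AL (-0.44, adjusted p = 0.0461). That call was lost in 13 of 15 fits, that without Sham AL mouse 4 among them (adjusted p = 0.078). Of 20 other pump subunits, Atp6v0d2, an isoform found in macrophages and osteoclasts, rose against Sham AL (1.08 ± 0.252 SE, adjusted p = 0.04), from 5.49 to 6.94 on Sham AL arrays and 6.15 to 7.67 on RYGB arrays. Its adjusted p was up to 0.13 with single arrays left out, and the call held in 3 of these 15 fits, those without RYGB mouse 3, Sham AL mouse 5 or BWm mouse 4. Of 39 other genes of the autophagy machinery, 0 were called against Sham AL (2 higher and 2 lower at an unadjusted p under 0.05). Against BWm, Tmem41b rose by 0.44 and Zfyve1 differed by -0.45 (adjusted p = 0.0199 and 0.0195), calls lost without BWm mouse 2 or 4 and without BWm mouse 1.

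Of 16 other autophagy receptors, Bnip3, a receptor for mitochondria that is induced by fasting and low oxygen, was lower in RYGB than in BWm (-0.77 ± 0.108 SE, adjusted p = 0.000278) with BWm highest at 8.87 ± 0.18 (SD, n = 4), Sham AL at 8.45 ± 0.09 (SD, n = 5) and RYGB at 8.09 ± 0.16 (SD, n = 6). Retreg1, a receptor for the endoplasmic reticulum, rose by 0.86 ± 0.184 SE in RYGB and by 0.89 ± 0.204 SE in BWm against Sham AL (adjusted p = 0.0233 and 0.0222), and RYGB differed from BWm by -0.04. These calls held in 9 and 11 of 15 fits that left out 1 mouse. RYGB mouse 3, 4 or 6 or Sham AL mouse 2, 3 or 5 decided the first, and Sham AL mouse 2 or 3 or BWm mouse 2 or 3 the second. Of 38 genes of TFEB relatives, mTORC1 and nutrient sensing, Foxo1, a transcription factor of fasting, was higher in BWm than in Sham AL (0.62 ± 0.124 SE, adjusted p = 0.0108) and lower in RYGB than in BWm (-0.81 ± 0.119 SE, adjusted p = 0.000438). Ppargc1a, a coactivator of fasting metabolism, differed alike (1.01 and -0.75, adjusted p = 0.013 and 0.0319). Between the sham groups, leaving out BWm mouse 3 (Foxo1, adjusted p = 0.051) or BWm mouse 2 (Ppargc1a, adjusted p = 0.063) took the call away, and the second Ppargc1a call was lost in 5 of 15 fits. Fnip1, a partner of folliculin, was called in BWm against Sham AL (0.6, lost without Sham AL mouse 2 or 3 or BWm mouse 1, 2 or 3), and Rragd, a GTPase that signals nutrients to mTORC1 and is itself a TFEB and TFE3 target, in RYGB against BWm (0.68 ± 0.195 SE, adjusted p = 0.0429, lost in 9 of 15 fits). Rragd differed by 0.69 ± 0.183 SE from Sham AL (adjusted p = 0.077), and this passed the threshold once Sham AL mouse 4 was left out (adjusted p = 0.005).

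**Figure D5:**
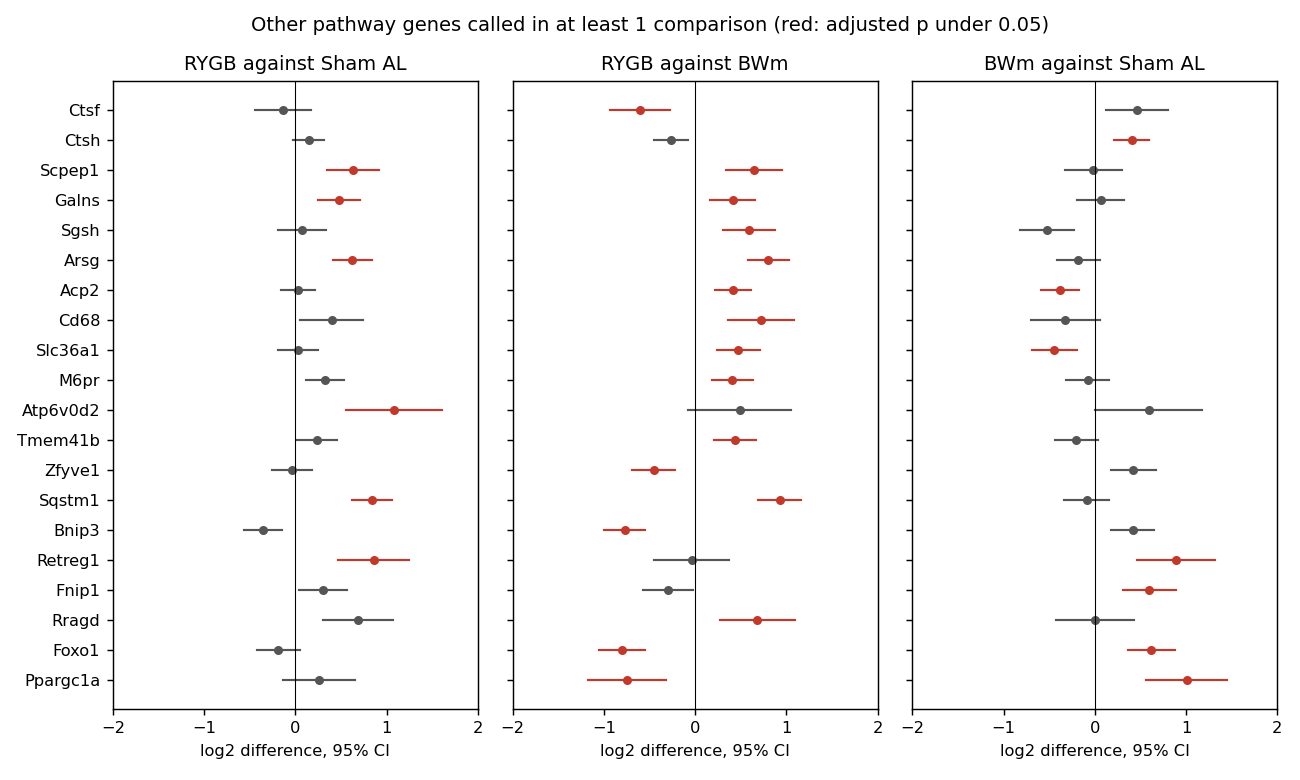
Log2 difference (point) and 95% confidence interval (line) of the other pathway genes called in at least 1 comparison, with calls at an adjusted p under 0.05 in red. Sqstm1 and Arsg lie right of 0 in both RYGB panels, while Foxo1, Ppargc1a and Bnip3 lie left of 0 in RYGB against BWm and right of 0 in BWm against Sham AL.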

How the data were processed

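Liver RNA of 15 mice was hybridised to GeneChip Mouse Gene 2.0 ST arrays. The deposited values are log2 signals that the authors summarised by RMA (robust multi-array averaging), per the series' design text, with Expression Console 1.4.1.46 from Affymetrix. The genome build of the probe annotation is not given in the sources used here. Of 41345 transcript clusters, 23521 named 1 gene, and for each of 22180 genes the cluster with the highest mean was kept, with no filter on level. Groups were contrasts of 1 limma fit over all arrays (limma 3.58.1, R 4.3.3, lmFit and eBayes, two-sided, Benjamini-Hochberg over all genes), checked on simulated data; the number of arrays limits the precision. Alternatives covered scaling, features, variance, the replicate block, the animal number (under 50 or over 60) as a term, arrays left out and the methods' test, a one-way analysis of variance with a fold of at least 1.5. Titles call arrays biological replicates. No scan date is given. Any of the members could be named; of the other pathway lists, at most 6 called genes per list and comparison, and Sqstm1 by choice. Members, lists and tests were chosen with earlier results of these data known. Python 3.11.15, pandas 2.3.3 and matplotlib 3.10.9 made tables and figures.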

Additional observations from a re-analysis of the deposited data

Results flagged for a closer look

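Among 108 sets of values (36 members in 3 groups), 1 array lay far from the rest of its group by Dixon's criterion, where chance flags about 1 in 20 sets. Atg13 measured 8.88 on the array of RYGB replicate 4, and the next RYGB array measured 8.45. Without this array the difference from BWm was still called, as given above.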

How the results depend on the processing

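Counts of called members were small and changed readily, and no named call changed direction. In RYGB against Sham AL (4 called), 2 members were called with all transcript clusters tested, 2 with the replicate block, 2 by the methods' unadjusted p and fold, 1 by the methods' test after Benjamini-Hochberg (Neu1, and not Tfe3, Ctsl or Asah1), and 1 to 4 with single arrays left out. In RYGB against BWm (4 called) it was 2 with array medians subtracted, 2 with all transcript clusters, 2 with the replicate block, 0 by the methods' unadjusted p and fold (limma gave 9 higher and 3 lower at an unadjusted p under 0.05), and 2 to 4 with single arrays left out. The 0 was fixed by the fold of at least 1.5, which no member reached against BWm (log2 differences of -0.42 to 0.58). The limma counts beside it used no fold. In BWm against Sham AL (1 called), Atg7 joined Map1lc3b, making 2, with a filter on dim genes, quantile normalization, a trended and robust prior or array weights; 0 were called by the methods' test after Benjamini-Hochberg (limma gave 2 higher and 3 lower at an unadjusted p under 0.05), and 1 to 2 with single arrays left out. Other pathway genes numbered 6 in RYGB against Sham AL, but 2 with all clusters, 3 with the compared groups only, 2 with the replicate block, 2 by the methods' test after adjustment, and 2 to 6 with arrays left out. In RYGB against BWm (16) they were 7 with the replicate block, 10 by the methods' adjusted test and 11 to 17 with arrays left out. In BWm against Sham AL (7) they were 19 with the filter on dim genes, 3 with all clusters, 3 with the compared groups only, 14 with the trended prior, 2 with the replicate block, 1 by the methods' adjusted test and 1 to 10 with arrays left out. Apart from the 0 fixed by the fold, the cause of these changes was not tested, beyond the larger or smaller number of features that the filter and the clusters bring. The median over members in BWm against Sham AL moved from 0.02 to 0.08 with array medians subtracted; with quantile normalization it was -0.004, and -0.001 in RYGB against Sham AL, so these medians have no settled sign. With single arrays left out the medians were 0.026 to 0.064, 0.084 to 0.131 and 0.01 to 0.033. With the animal number as a term, calls were lost for Neu1 (adjusted p = 0.074) and Galns (0.056) in RYGB against Sham AL, for Galns (0.094), Ctsf (0.054), M6pr (0.098), Tmem41b (0.073) and Ppargc1a (0.064) in RYGB against BWm, and for Slc36a1 (0.057) in BWm against Sham AL; Rragd (0.044, RYGB against Sham AL) and Zfyve1 (0.018, BWm against Sham AL) gained one. Whether replicate numbers pair mice was not settled. Correlations of deviations over 13 same-numbered pairs ran from -0.17 to 0.19, 4 of them over 0.1, and 2 of 14 arrays correlated best with their own number. Signal over background was not analysed here, and Tfeb lay near the array medians.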
